A study of Mus musculus with 2 samples.

Results

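The 10 genes described here encode parts of the mammalian circadian clock and its direct output, and they were taken as a fixed list from the 27998 genes counted in the series. They were Arntl (the gene of BMAL1), Clock and Npas2, the period genes Per1, Per2 and Per3, the repressor gene Ciart, the nuclear receptor genes Nr1d1 and Nr1d2, and Dbp. Each gene was read in 3 sets of barcodes: barcodes with over 30% mitochondrial UMIs, barcodes with under 2% mitochondrial UMIs, and barcodes of non-hepatocyte cells. A unique molecular identifier (UMI) tags 1 captured transcript molecule, and a barcode tags 1 droplet.

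The study compared liver cells from undamaged liver with liver cells taken 48 h after partial hepatectomy (PHx), an operation that cuts away a large share of the organ, to follow the tissue as it regrew. Both libraries came from C57BL/6 mice on normal diet, named as adult male C57BL/6J mice in the methods of the study. The labels give an age of 10 to 12 weeks for the operation, while the methods give a somewhat younger range. Hepatocytes were released by perfusion of the liver with collagenase, an enzyme that digests the matrix between cells, and the libraries were made with the version 2 droplet chemistry of 10X Genomics. Each group, 0 h (undamaged) and 48 h (PHx48h), was 1 library from the cells of 1 mouse, so every difference below compares 2 libraries and carries counting error only. The hour of the day at which either liver was collected is not given in the sources used here. For genes whose level follows the time of day, the interval after PHx and the time of collection cannot be told apart in this design.

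The clock of a mammalian cell is a feedback loop of transcription. BMAL1 pairs with CLOCK or NPAS2, and the pair binds E-box sequences and switches on the period genes, the cryptochrome genes, Ciart, Nr1d1, Nr1d2 and Dbp, while the PER and CRY proteins and CIART repress that pair. The REV-ERB proteins encoded by Nr1d1 and Nr1d2 repress Arntl and Npas2 through a response element known as RRE, and DBP activates genes that carry a D-box. In liver these loops run with a daily rhythm, and transcripts of the BMAL1 arm and of the Per and Dbp arm peak at opposite times of day.

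The 0 h library held 59202 barcodes and 90124407 UMIs outside the 13 mitochondrial genes, and the 48 h library held 1586 barcodes and 11465347 such UMIs. The set over 30% mitochondrial held 3870 barcodes at 0 h and 765 at 48 h, with 5778391 and 5103719 non-mitochondrial UMIs. The set under 2% held 52587 and 522 barcodes, with 78751891 and 3135996 UMIs, and the non-hepatocyte set held 770 and 115 barcodes, with 1881309 and 770360 UMIs. The median barcode was shallower at 0 h in every set, at 1213.5 against 4411 non-mitochondrial UMIs over 30%, 1413 against 5271.5 under 2%, and 2177 against 5923 in the non-hepatocyte set. The deposited 0 h list was far longer than the set of cells the study kept, and whether each of its barcodes held a cell was not tested. The libraries shared 148 barcode sequences, 0.25% of the 0 h list and 9.33% of the 48 h list.

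The barcodes of both mitochondrial sets carried hepatocyte RNA. The 10 hepatocyte markers, such as Alb and Apoa1, were all detected and summed to 130736 and 133023 CPM (UMIs per 1000000 non-mitochondrial UMIs) over 30%, and to 107078 and 78991 CPM under 2%, at 0 h and 48 h. Macrophage markers summed to 26.1 to 39.5, endothelial markers to 24.2 to 62.7 and stromal markers to 19.7 to 153 CPM in these sets, against 2422 to 5563, 2526 to 2813 and 1306 to 5207 in the non-hepatocyte set. The 8 cholangiocyte markers summed to 312 and 1270 CPM over 30% and to 446 and 1035 CPM under 2%, and to 312 and 362 CPM in the non-hepatocyte set. Most of that sum in the mitochondrial sets was Krt8, a keratin that hepatocytes also express, at 170 and 1034 CPM over 30% and at 306 and 819 CPM under 2%, while Krt19, Krt7, Epcam and Cftr, which mark bile duct cells, had 0 to 12 UMIs each per library and set. All T or NK and B cell markers with an entry were at 0 in both mitochondrial sets at 48 h, and among the endothelial markers Pecam1 and Lyve1 were at 0 under 2% at 48 h. Hepatocyte markers also summed to 65132 and 32944 CPM in the non-hepatocyte barcodes, so hepatocyte RNA was counted in them too.

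The sequences just before the transcription starts are shown for the 3 members whose window held E-box or D-box letters and, for Arntl, a stretch after the start with RRE letters, because the loop is known to act through elements of these kinds. They are RefSeq sequences of build GRCm38.p6, 5′ to 3′ on the strand of the gene, and capitals mark the motif. Ciart, whose level was far apart between the libraries in both mitochondrial sets, lies on chromosome 3, and the 250 bases before its start at chr3:95882229-95882478 (minus strand) hold 3 E-boxes, CACGTG, beginning 116, 58 and 44 bases before the start. The window before Per1 at chr11:69098699-69098948 (plus strand) holds 1 E-box, 166 bases before the start, and the window of the other listed start of Per1 holds none of the motifs. The window before Per3 at chr4:151044666-151044915 (minus strand) holds 2 D-boxes, TTATGTAA, 205 and 158 bases before the start. For Arntl, 30 bases of the first exon are shown, chr7:113207530-113207559 (plus strand), with the RRE letters TAGGTCA from base 31 after the start. These lie in the window of 1 of its 2 listed starts, and the other window holds none of the motifs.
Ciart: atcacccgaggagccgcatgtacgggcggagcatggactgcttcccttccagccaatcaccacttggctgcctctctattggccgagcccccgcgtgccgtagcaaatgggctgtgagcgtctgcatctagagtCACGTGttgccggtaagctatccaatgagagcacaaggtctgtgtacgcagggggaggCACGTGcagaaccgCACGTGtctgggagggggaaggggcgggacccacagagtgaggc
Per1: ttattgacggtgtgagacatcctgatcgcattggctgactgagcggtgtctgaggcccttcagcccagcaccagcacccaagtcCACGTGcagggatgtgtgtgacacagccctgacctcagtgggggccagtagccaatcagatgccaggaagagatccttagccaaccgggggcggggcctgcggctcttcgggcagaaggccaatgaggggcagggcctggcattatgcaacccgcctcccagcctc
Per3: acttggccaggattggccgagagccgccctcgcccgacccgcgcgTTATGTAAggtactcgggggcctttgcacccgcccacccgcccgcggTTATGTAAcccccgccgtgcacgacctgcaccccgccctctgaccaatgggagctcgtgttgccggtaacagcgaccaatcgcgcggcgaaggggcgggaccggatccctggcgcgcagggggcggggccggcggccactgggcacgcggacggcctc
Arntl: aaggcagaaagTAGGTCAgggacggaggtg

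The E-box letters stood in 7.15% of 32851 RefSeq promoter windows of 300 bases, and 3 or more copies in 0.0883%. D-box letters, searched as TTATGTAA or TTACGTAA on both strands, stood in 1.06% of windows, and 2 or more in 0.0244%. The RRE letters, searched on both strands, stood in 2.61%. The table held windows for 9 of the 10 members and not for Per2. These letters were in no window of Npas2, Clock, Nr1d1, Nr1d2 or Dbp. A match is a run of letters in the window and not a measured binding site.

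At 48 h Per1, Per2, Per3, Ciart and Dbp were higher and Arntl and Nr1d1 lower in both mitochondrial sets, by the rule given next. Nr1d2 passed that rule under 2% and in the non-hepatocyte set but not over 30%, Npas2 had 0 UMIs at 48 h and was not called in any set, and Clock was not called in any set. A gene was called when its level in CPM differed at least 2-fold and at least 10 UMIs were counted in both libraries together. Over 30% mitochondrial, 9 members had enough UMIs, 5 were called higher and 2 lower, where 32.5% of 11067 genes were called higher and 6.33% lower. Under 2%, all 10 had enough UMIs, 6 were called higher and 2 lower, against 25.4% and 17.2% of 12787 genes. Of 7 with enough UMIs in the non-hepatocyte set, 4 were called higher and 1 lower, against 21.3% and 14.4% of 11038 genes. The median log2 ratio of 48 h over 0 h was 1.81, 1.23 and 1.29 for the members and 0.57, 0.06 and 0.19 for all genes with enough UMIs, in the same order of sets.

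The background depended on the scaling. With TMM factors every log2 ratio was lower by 0.56 over 30%, by 0.23 under 2% and by 0.31 in the non-hepatocyte set, and the median of all genes over 30% became 0.01. The share of higher genes among all called genes then went from 83.7% to 52.8%, from 59.6% to 48.2% and from 59.6% to 39.2%. With median-of-ratios factors these shares were 54.3%, 46.5% and 42.1%. The 7 calls over 30% were made for the same genes under both scalings, Nr1d2 was no longer called under 2% with either, and Per1 and Nr1d2 were no longer called in the non-hepatocyte set with TMM.

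**Figure D1:**
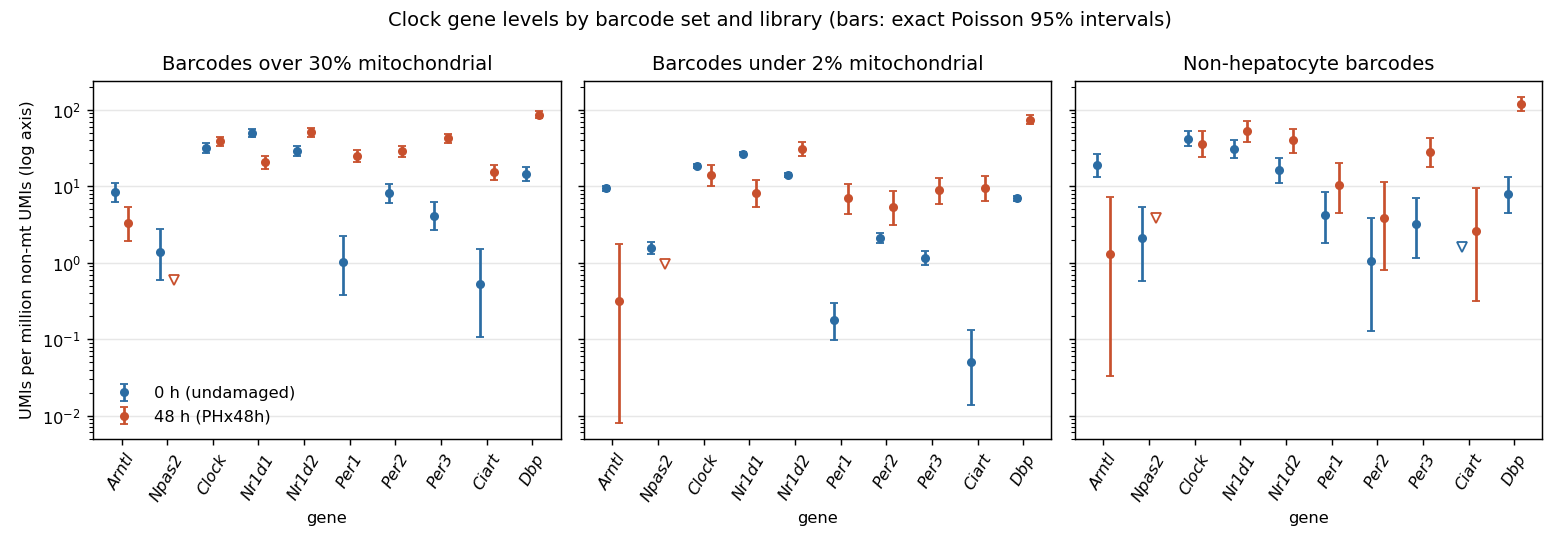
Levels of the 10 clock genes in CPM, on a log axis, in the 3 barcode sets (panels) at 0 h (blue) and 48 h (orange). Points are summed counts with exact Poisson 95% intervals, and open triangles mark the level of 3 counts for a gene with 0 UMIs. In both mitochondrial sets the 48 h point of Dbp (87.2 and 74.6) and of the 3 Per genes stands above its 0 h point, and that of Arntl below it.

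Of the activators of the loop, Arntl, on chromosome 7 (GRCm38, chr7:113207465-113314126), encodes BMAL1, the partner that the loop cannot do without. Over 30% it stood at 8.48 CPM at 0 h (49 UMIs, 95% Poisson interval 6.27 to 11.2) and at 3.33 CPM at 48 h (17 UMIs, 1.94 to 5.33). That was 2.55-fold lower at 48 h, with a counting interval of 1.44 to 4.72. Under 2% it stood at 9.45 CPM at 0 h (744 UMIs) and 0.319 CPM at 48 h, where 1 UMI was counted, which made it 29.6-fold lower with an interval of 5.30 to 1172. The non-hepatocyte levels were 19.1 CPM (36 UMIs) and 1.30 CPM (1 UMI), 14.7-fold lower with an interval of 2.48 to 598. The 0 h and 48 h intervals of Arntl did not overlap in any of the 3 sets.

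Npas2, the paralog that can replace Clock as the partner of BMAL1, had 8, 122 and 4 UMIs at 0 h over 30%, under 2% and in the non-hepatocyte set, and 0 UMIs in all 3 sets at 48 h. With a floor of 3 counts in place of the 0 at 48 h, it was 2.36-fold lower over 30% and 1.62-fold lower under 2%. The counting intervals begin at 1.51 and 1.30, so the difference may be smaller, and no fold was formed in the non-hepatocyte set. Its 0 h level was 1.38 CPM over 30% and 1.55 CPM under 2%, close to what the 48 h sets could resolve. Clock, the constant partner of BMAL1, was the member with the smallest difference over 30% and under 2%. Its levels were 31.5 and 39.0 CPM over 30% (182 and 199 UMIs), 18.5 and 14.0 CPM under 2% (1454 and 44 UMIs), and 42.0 and 36.3 CPM in the non-hepatocyte set (79 and 28 UMIs). The log2 ratios were 0.31 (0.01 to 0.61), −0.40 (−0.86 to 0.04) and −0.21 (−0.89 to 0.43). The sign over 30% turned with the scaling, at −0.25 with TMM and −0.23 with median-of-ratios factors.

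The period genes encode the repressors that close the loop, and all 3 were called higher at 48 h in both mitochondrial sets. Per1, which also responds within hours to glucocorticoids and other signals, went from 1.04 CPM (6 UMIs) to 24.9 CPM (127 UMIs) over 30%, 24.0-fold with an interval of 10.7 to 66.5. Under 2% it went from 0.178 CPM (14 UMIs) to 7.02 CPM (22 UMIs), 39.5-fold with an interval of 19.3 to 83.4. Among non-hepatocyte barcodes 8 UMIs were counted at each time, 4.25 and 10.4 CPM, and the interval of the ratio, 0.799 to 7.46, included 1.

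Per2, a core repressor of the loop, stood at 8.13 CPM (47 UMIs) and 28.6 CPM (146 UMIs) over 30%, 3.52-fold higher at 48 h with an interval of 2.52 to 5.0. Under 2% the levels were 2.12 CPM (167 UMIs) and 5.42 CPM (17 UMIs), 2.56-fold with an interval of 1.45 to 4.22. In the non-hepatocyte barcodes 2 and 3 UMIs were counted, too few for a call. Per3, the period gene that is not needed for the rhythm itself, stood at 4.15 CPM (24 UMIs) and 42.3 CPM (216 UMIs) over 30%, 10.2-fold with an interval of 6.67 to 16.3. It was 7.73-fold higher under 2% (1.16 and 8.93 CPM, 91 and 28 UMIs, interval 4.87 to 11.9) and 8.95-fold higher in the non-hepatocyte set (3.19 and 28.6 CPM, 6 and 22 UMIs, interval 3.52 to 27.0). The non-hepatocyte call for Per3 was thus made from few UMIs at 0 h, but its interval lay past 2-fold.

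Ciart, also known as Chrono, encodes a repressor of the BMAL1 pair and had the largest ratio of the members with a call under 2%. It had 4 UMIs among 52587 barcodes at 0 h (0.0508 CPM) and 30 among 522 at 48 h (9.57 CPM), 188-fold with an interval of 66.4 to 736. Over 30% it had 3 UMIs (0.519 CPM) and 79 UMIs (15.5 CPM), and the ratio was 29.8 with an interval of 9.84 to 148. The 79 UMIs lay in 66 barcodes, at most 4 in 1 barcode, so no single droplet carried the count. Non-hepatocyte barcodes held 0 and 2 UMIs, the 2 in 1 barcode, and no fold was formed.

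Nr1d1 and Nr1d2 encode REV-ERBα and REV-ERBβ, the repressors of Arntl, and their log2 ratios had opposite signs in both mitochondrial sets. Nr1d1 stood at 50.4 CPM (291 UMIs) and 20.8 CPM (106 UMIs) over 30%, 2.42-fold lower at 48 h with an interval of 1.93 to 3.06. Under 2% it stood at 26.8 CPM (2112 UMIs) and 8.29 CPM (26 UMIs), 3.23-fold lower with an interval of 2.20 to 4.96. It was higher at 48 h in the non-hepatocyte set, at 30.8 CPM (58 UMIs) and 53.2 CPM (41 UMIs), 1.73-fold with an interval of 1.13 to 2.62, under the limit for a call. Its Poisson intervals in that set were 23.4 to 39.9 and 38.2 to 72.2 and so overlapped. Over 30% the Nr1d1 call rested on an interval that reached just under 2-fold, and with the set widened from under 2% to under 5% mitochondrial its log2 ratio was −0.91, short of a call.

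Nr1d2 had log2 ratios of 0.81, 1.12 and 1.29, against 0.57, 0.06 and 0.19 for the median gene of each set. The levels were 28.9 and 50.7 CPM over 30% (167 and 259 UMIs, 1.76-fold, interval 1.44 to 2.15), 14.3 and 30.9 CPM under 2% (1124 and 97 UMIs, 2.17-fold, interval 1.74 to 2.67), and 16.5 and 40.2 CPM in the non-hepatocyte set (31 UMIs each, 2.44-fold, interval 1.44 to 4.15). Nr1d1 shares 263 exon bases with Thra on the opposite strand, and whether the counting used strand is not given in the sources used here. Thra was also lower at 48 h in all 3 sets, with log2 ratios of −0.97, −0.90 and −0.47, at 3.19 to 7.27 CPM in the mitochondrial sets and at 50.5 and 36.3 CPM in the non-hepatocyte set. No set reached a call for Thra, with log2 intervals of −1.83 to −0.15 over 30% and −1.97 to −0.01 under 2%. In the non-hepatocyte set the Poisson intervals of Thra, 40.9 to 61.7 and 24.2 to 52.5 CPM, overlapped. Its part in the Nr1d1 count was not tested.

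Dbp encodes a transcription factor of the PAR bZIP family that carries the rhythm to liver metabolic genes. Over 30% it stood at 14.5 CPM (84 UMIs, interval 11.6 to 18.0) and 87.2 CPM (445 UMIs, 79.3 to 95.7), 6.00-fold higher at 48 h with an interval of 4.74 to 7.67. Under 2% it stood at 6.97 CPM (549 UMIs) and 74.6 CPM (234 UMIs), 10.7-fold with an interval of 9.15 to 12.5. Among non-hepatocyte barcodes it stood at 7.97 CPM (15 UMIs) and 119 CPM (92 UMIs), 15-fold with an interval of 8.63 to 27.8. Its 92 UMIs lay in 52 of 115 barcodes, and the barcode with most held 12. Dbp shares 539 exon bases with Sphk2 on the opposite strand, and Sphk2 was lower at 48 h in all 3 sets, with log2 ratios of −0.61, −1.56 and −0.75. Counts between genes were not ranked further, since reads from the 3′ end are captured to a different degree for each gene.

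**Figure D2:**
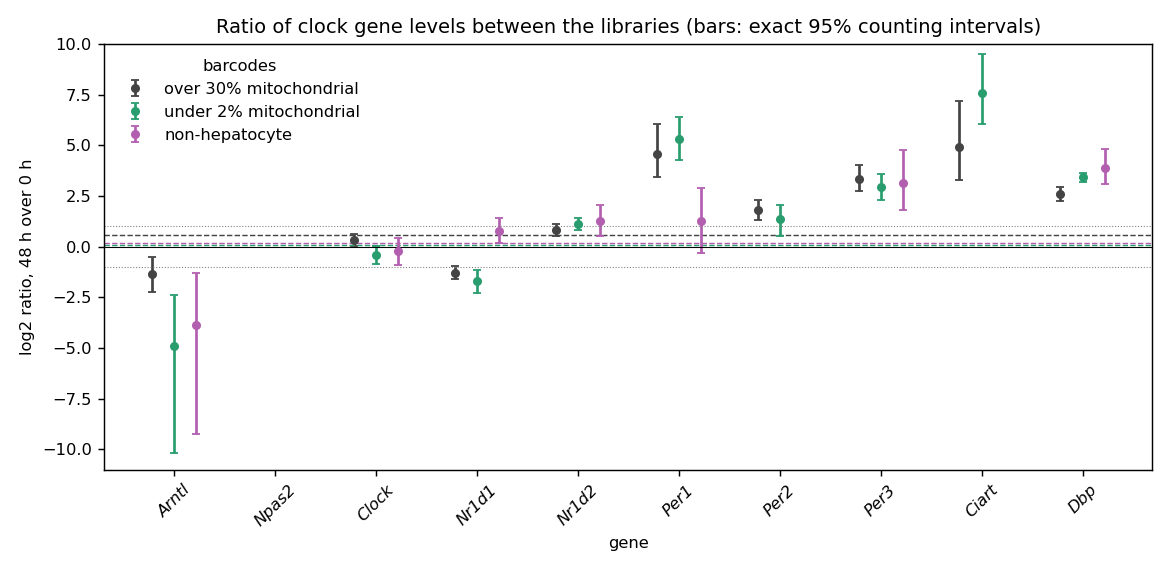
Log2 ratio of the 48 h level over the 0 h level for each clock gene with at least 10 UMIs, in barcodes over 30% mitochondrial (grey), under 2% mitochondrial (green) and non-hepatocyte barcodes (purple), with exact 95% counting intervals. Dashed lines give the median of all genes in each set, dotted lines mark 2-fold, and Npas2, which had 0 UMIs at 48 h, is not drawn. Dbp and Per3 lie above 2-fold in the 3 sets, Arntl lies below 0 in the 3 sets, and Nr1d1 lies below 0 in the mitochondrial sets (−1.28 and −1.69) and above it in the non-hepatocyte set (0.79).

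Within each library the level over 30% was then set against that under 2% mitochondrial. It was higher for 7 of the 9 members with enough UMIs at 0 h, where 52.4% of 12802 genes were higher, and for 9 of 9 at 48 h, where 71.2% of 10816 genes were. The median ratio was 2.02 for the members and 1.04 for all genes at 0 h, and 2.78 and 1.58 at 48 h. At 0 h this ratio of sets was 5.84 for Per1 (1.84 to 16.2), on 6 and 14 UMIs. It was 3.84 for Per2 (2.71 to 5.33), 3.59 for Per3 (2.19 to 5.69) and 2.09 for Dbp (1.64 to 2.63). For Nr1d2 it was 2.02 (1.71 to 2.38), for Nr1d1 1.88 (1.66 to 2.12) and for Clock 1.71 (1.45 to 1.99). Npas2 was not higher at 0 h, at 0.894 (0.377 to 1.82). Arntl did not share it at 0 h either, at 0.898 with an interval of 0.658 to 1.20, while at 48 h it stood at 10.4 on 17 and 1 UMIs, with an interval of 1.64 to 437. At 48 h the ratio was 5.28 for Per2 (3.18 to 9.31), 4.74 for Per3 (3.19 to 7.30), 3.55 for Per1 (2.24 to 5.86), 2.78 for Clock (2.00 to 3.95) and 2.51 for Nr1d1 (1.62 to 4.01). Nr1d2 at 1.64 (1.29 to 2.09) and Ciart at 1.62 (1.05 to 2.55) lay near the median of all genes at 48 h. Dbp was nearly level at 48 h, at 1.17 with an interval of 0.995 to 1.37. The nuclear RNA Neat1 moved with the same contrast, 14.9-fold higher over 30% at 0 h and 7.90-fold at 48 h, as did Malat1 at 2.11-fold and 1.30-fold, while Alb was at 0.940 and 2.34. Their part in the clock gene ratios was not tested.

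The level was then followed across 5 bins of mitochondrial share over all barcodes. Dbp was between 74.6 and 112 CPM in the 5 bins at 48 h and between 6.97 and 16.3 CPM at 0 h, so its ranges did not meet. Per3 stood at 8.93, 26.7, 25.7, 37.4 and 46.5 CPM from the lowest to the highest bin at 48 h, and at 1.16, 2.43, 3.71, 4.12 and 4.24 CPM at 0 h. Arntl lay between 0.319 and 4.73 CPM at 48 h, on 1 to 13 UMIs a bin, and between 6.87 and 13.4 CPM at 0 h. Nr1d1 did not keep 1 order: in the bin from 2% to 10%, with 2045 and 156 barcodes, it stood at 32.9 CPM at 0 h and 43.6 CPM at 48 h, whereas in the other 4 bins it was lower at 48 h. The Poisson intervals in the bin from 2% to 10%, 27.3 to 39.3 and 31.7 to 58.5 CPM, overlapped. That bin also held part of the non-hepatocyte barcodes. Among barcodes from 2% to 30% without them, Nr1d1 stood at 35.2 CPM (153 UMIs) and 19.7 CPM (50 UMIs). That wider range takes in the bin from 10% to 30%, where Nr1d1 stood at 42.4 and 20.8 CPM over all barcodes. The bin from 2% to 10% was not read without the non-hepatocyte barcodes, so their part in its order was not tested.

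**Figure D3:**
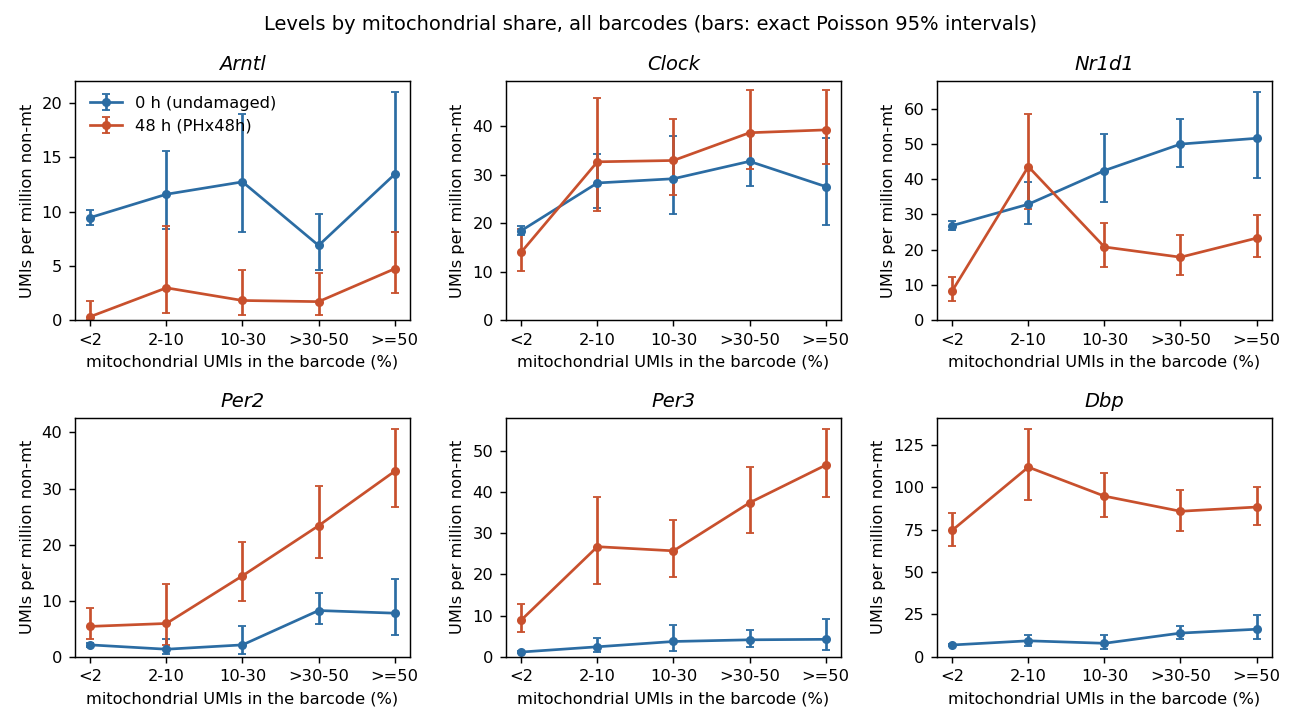
Level of 6 clock genes in CPM (linear axes from 0) against the share of mitochondrial UMIs in the barcode, for all barcodes at 0 h (blue) and 48 h (orange), with exact Poisson 95% intervals. The 48 h line of Dbp and of Per3 lies above the 0 h line in every bin and that of Arntl below it. The Nr1d1 lines cross in the bin from 2% to 10% (32.9 and 43.6), where their intervals overlap.

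The non-hepatocyte set was not made up alike in the 2 libraries. At 0 h it held 549 barcodes of a macrophage-like cluster, whose leading genes included Cd74 and H2-Aa beside Clec4f and C1qa, and 221 of an endothelial-like cluster. At 48 h it held 26 macrophage-like, 59 endothelial-like and 30 stromal-like barcodes. Within the endothelial-like barcodes Dbp stood at 10.0 CPM (7 UMIs) and 139 CPM (57 UMIs), 13.9-fold with an interval of 6.33 to 36.1. Within the macrophage-like barcodes it stood at 6.77 CPM (8 UMIs) and 41.4 CPM (7 UMIs), 6.11-fold with an interval of 1.89 to 19.3, and the stromal-like barcodes at 48 h stood at 146 CPM (28 UMIs). At 0 h, 110 and 111 of the macrophage-like barcodes fell into a T or NK-like cluster led by Ccl5 at resolutions 0.5 and 1.5, and without those 110 barcodes Dbp stood at 5.47 CPM (5 UMIs) there. Alb stood at 0.679 and 0.443 of its level under 2% in the macrophage-like barcodes at 0 h and 48 h, at 0.479 and 0.395 in the endothelial-like ones and at 0.657 in the stromal-like ones. Under 2% at 48 h Dbp itself stood at 74.6 CPM, above its macrophage-like and below its endothelial-like and stromal-like levels. The part of hepatocyte RNA in these counts was not tested. Arntl in endothelial-like barcodes stood at 25.8 CPM (18 UMIs) and 2.44 CPM (1 UMI), 10.5-fold lower with an interval of 1.66 to 439, and Per3 had 2 and 11 UMIs there.

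Nr1d1 was 1.43-fold higher at 48 h in endothelial-like barcodes (52.9 and 75.7 CPM, 37 and 31 UMIs, interval 0.858 to 2.37). In macrophage-like barcodes the ratio was 2.00 (17.8 and 35.5 CPM, 21 and 6 UMIs, interval 0.659 to 5.11). Both intervals included 1. The level of Nr1d1 was higher in endothelial-like than in macrophage-like barcodes at both times. At 48 h, however, the Poisson intervals of the 2 classes, 51.5 to 108 and 13.0 to 77.2 CPM, overlapped. The endothelial-like share of the set was larger at 48 h, so a shift in the make-up and a shift within a class cannot be told apart here. Against the barcodes under 2%, the non-hepatocyte level of Nr1d1 was 1.15-fold at 0 h (0.870 to 1.49) and 6.42-fold at 48 h (3.83 to 10.9).

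The share of barcodes with a UMI of any clock gene was read with and without equal depth. Without thinning, at least 1 UMI of any of the 10 was found in 19.0% of barcodes at 0 h and 71.4% at 48 h over 30%, in 11.2% and 58.0% under 2%, and in 24.7% and 80.0% of the non-hepatocyte set. After each barcode was thinned to 500 non-mitochondrial UMIs, with 75 of the 0 h barcodes over 30% left out as shallower, the shares were 7.17% (exact binomial interval 6.37 to 8.03) and 13.5% (11.1 to 16.1) over 30%. They were 3.92% (3.76 to 4.09) and 8.62% (6.36 to 11.4) under 2%, and 6.49% (4.86 to 8.47) and 13.0% (7.49 to 20.6) in the non-hepatocyte set, whose intervals overlapped. For Dbp alone the thinned shares were 0.711% and 3.92% over 30% and 0.337% and 4.02% under 2%.

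The other genes of the clock were read from a list of 14: the cryptochromes, the ROR activators, the DEC repressors Bhlhe40 and Bhlhe41, Nfil3, Tef, Hlf, regulators of PER and CRY stability, and Timeless. Over 30%, 13 had enough UMIs, 5 were higher (Rora, Bhlhe40, Nfil3, Tef and Timeless) and none was lower, and their median log2 ratio of 0.90 stood beside 0.57 for all genes. Under 2%, 4 of 14 were higher and 2 lower, with a median of 0.19 beside 0.06. In the non-hepatocyte set 3 of 13 were higher and none lower, with a median of 0.19, the same as for all genes. With TMM factors the counts were 2 higher over 30%, 3 higher and 3 lower under 2%, and 3 higher and 2 lower in the non-hepatocyte set. The shares of all genes called higher were 32.5%, 25.4% and 21.3% in the order of sets and became 16.7%, 20.4% and 13.7% with TMM, and the shares called lower were 6.33%, 17.2% and 14.4% and became 14.9%, 22% and 21.2%. The listed genes' 5 of 13 and 4 of 14 higher thus lay near the shares of all genes.

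Bhlhe40, Tef and Timeless were the 3 called higher in both mitochondrial sets, but with TMM or median-of-ratios factors Tef was no longer called over 30% nor Bhlhe40 under 2%. Bhlhe40, the gene of DEC1, a repressor at E-boxes, stood at 23.2 and 76.6 CPM over 30% (3.30-fold, interval 2.71 to 4.05) and at 11.7 and 25.8 CPM under 2% (2.22-fold, 1.74 to 2.78). Tef, a PAR bZIP gene like Dbp, stood at 51.4 and 120 CPM over 30% (2.33-fold, 2.02 to 2.68) and at 8.89 and 36.4 CPM under 2% (4.09-fold, 3.33 to 4.99). Timeless, whose product acts at replication forks as well, stood at 1.56 and 8.43 CPM over 30% (5.41-fold, 2.60 to 12.6) and at 0.610 and 3.83 CPM under 2% (6.28-fold, 3.04 to 12.0). In the non-hepatocyte set they were 3.56-fold, 6.03-fold and 4.54-fold higher. Cry1, a repressor that partners the PER proteins, stood at 7.10 and 8.43 CPM over 30% and at 7.30 and 3.51 CPM under 2%, so its sign differed between the sets, and the interval over 30% spanned 1 (0.756 to 1.87). Its log2 ratio over 30% was 0.25, while TMM and median-of-ratios factors lowered every ratio there by 0.56 and 0.53. With either scaling the ratio of Cry1 was thus below 1 in both mitochondrial sets. Over 30%, on 41 and 43 UMIs, its interval lowered by the same amount still spanned 1, so no direction was settled there.

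A list of 14 liver genes known to follow the clock was read in the same way. Over 30%, 10 were higher and 1 lower, with a median of 1.27, and under 2%, 6 of 13 were higher and 1 lower, with a median of 0.89. Of 12 in the non-hepatocyte set, 4 were higher and 2 lower, with a median of −0.04. With TMM factors 5 were higher and 1 lower over 30%, and 4 higher and 1 lower under 2%. In the non-hepatocyte set 4 were then higher and 3 lower. Among all genes 32.5% were higher and 6.33% lower over 30%, 25.4% and 17.2% under 2%, and 21.3% and 14.4% in the non-hepatocyte set. With TMM 16.7%, 20.4% and 13.7% of all genes were higher and 14.9%, 22% and 21.2% lower. The medians of all genes were 0.57, 0.06 and 0.19. Usp2, a deubiquitinase with a strong rhythm in liver, was 30.2-fold higher over 30% (1.90 and 57.4 CPM, interval 16.6 to 61.1) and 23.4-fold higher under 2% (1.14 and 26.8 CPM, 17.2 to 31.9). Cdkn1a, the gene of the cell cycle inhibitor p21, was 14.0-fold higher over 30% (8.63 to 24.0) and 25.5-fold higher under 2% (21.3 to 30.7). Nampt, of NAD synthesis, was 4.80-fold and 2.22-fold higher, Alas1, of heme synthesis, 3.87-fold and 6.45-fold, Ppara, a receptor for fatty acids, 2.43-fold and 2.17-fold, and Tspan4 2.38-fold and 2.53-fold. With TMM factors Ppara was called in neither mitochondrial set, Nampt not under 2% and Tspan4 not over 30%.

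Elovl3, a fatty acid elongase, was the 1 gene of that list that was lower in the 3 sets. Over 30% it stood at 821 CPM (4744 UMIs) and 5.49 CPM (28 UMIs), 150-fold lower with an interval of 103 to 225. Under 2% it stood at 546 CPM and 10.5 CPM (33 UMIs), 51.9-fold lower with an interval of 37.0 to 75.5. Among non-hepatocyte barcodes it had 662 and 3 UMIs, with a ratio of 90.4 (interval 30.8 to 439).

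**Figure D4:**
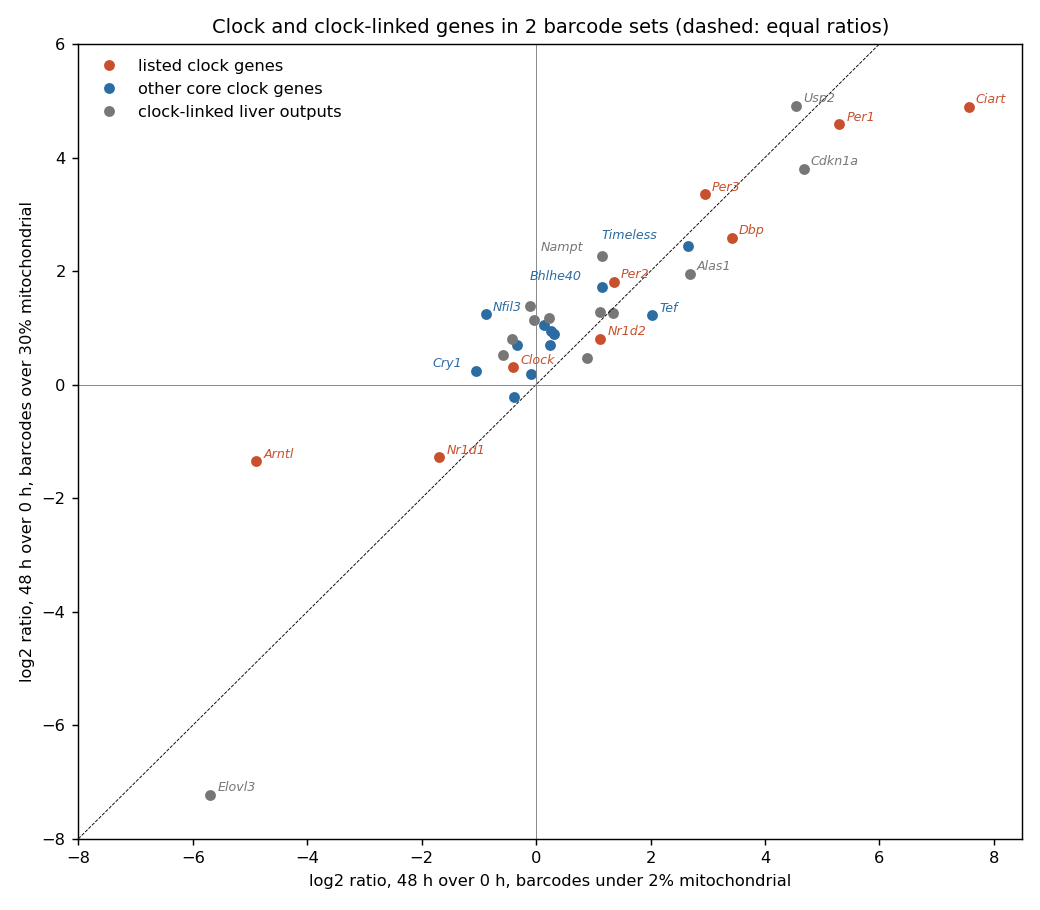
Log2 ratio of 48 h over 0 h in barcodes over 30% mitochondrial (vertical) against barcodes under 2% mitochondrial (horizontal) for the listed clock genes (orange), other core clock genes reported here (blue) and clock-linked liver outputs (grey) with at least 10 UMIs in both sets. The dashed line marks equal ratios. Ciart, Per1, Per3, Dbp, Usp2 and Cdkn1a lie far above 0 on both axes, Arntl, Nr1d1 and Elovl3 below 0 on both.

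Signals that reach clock genes from outside the loop were read from 3 further lists. Of 8 genes that respond to glucocorticoids, Per1 among them, 6 were higher and none lower over 30%, 4 were higher and none lower under 2%, and 3 of 7 were higher and 1, Tat, lower in the non-hepatocyte set. The medians were 1.69, 1.08 and 0.29, and with TMM factors 4 were higher over 30%, 4 under 2%, and 1 was higher and 1 lower in the non-hepatocyte set. Of all genes 32.5%, 25.4% and 21.3% were higher, with medians of 0.57, 0.06 and 0.19, and with TMM 16.7%, 20.4% and 13.7% were higher. Fkbp5, a chaperone of the glucocorticoid receptor, was 5.97-fold higher over 30% (4.50 and 26.8 CPM) and 2.50-fold under 2% (4.58 and 11.5 CPM). Sgk1, a kinase, was 6.58-fold and 2.49-fold higher, and Zbtb16, a transcription factor, was 3.66-fold and 4.09-fold higher. Tat and Pck1 were called higher over 30% but not under 2%. Tsc22d3 and Dusp1 were called in neither mitochondrial set. Their log2 ratios over 30% and under 2% were 0.36 and −0.42 for Tsc22d3, and −0.09 and −0.45 for Dusp1.

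Of 3 genes of RNA-binding proteins that respond to temperature, Rbm3 was higher in every set, 2.05-fold over 30% (1.75 to 2.41), 10.4-fold under 2% (9.26 to 11.7) and 4.76-fold in the non-hepatocyte set (3.95 to 5.75). Of all genes 32.5%, 25.4% and 21.3% were called higher in the order of sets, so 1 of 3 over 30% lay near the share of all genes. With TMM factors Rbm3 was not called over 30%, and the other 2 were called lower there. Of all genes over 30%, 16.7% were then higher and 14.9% lower. Cirbp stood at 27.2 and 16.9 CPM over 30% and at 9.92 and 11.8 CPM under 2%. The medians of this list were −0.59, 0.25 and −0.08, beside 0.57, 0.06 and 0.19 for all genes.

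Of 8 immediate early genes 7 had enough UMIs, and the same 5 (Fos, Jun, Egr1, Atf3 and Ier2) were higher over 30% and under 2%, with none lower and medians of 1.54 and 1.47. In the non-hepatocyte set 1 was higher and none lower, with a median of 0.29, and with TMM factors 3, 4 and 0 were higher in the same order of sets. The shares of all genes called higher, 32.5%, 25.4% and 21.3%, and 16.7%, 20.4% and 13.7% with TMM, stand beside these counts. All genes had medians of 0.57, 0.06 and 0.19. With TMM Egr1 was called in neither mitochondrial set and Jun not over 30%. Fos, a gene switched on within minutes of many stimuli, was 15.9-fold higher over 30% (2.77 and 44.1 CPM) and 3.85-fold under 2% (1.74 and 6.70 CPM). Jun was 2.91-fold and 2.77-fold higher, Egr1 2.50-fold and 2.10-fold, Ier2 3.29-fold and 2.83-fold, and Atf3 37.7-fold under 2%, with 2 and 22 UMIs over 30% (ratio 12.5, interval 3.06 to 109). These genes thus differed between the libraries beside Per1, and their part in the clock gene values was not tested.

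The genes with a pattern most like Arntl and most like Dbp were found from their 6 levels, 3 sets in 2 libraries, as the smallest distance between centred log2(CPM + 1) values among 9790 genes. Nearest to Arntl were Daglb (distance 1.06), Snhg9 (1.08), Ppp2r3a (1.12), Csad (1.15) and Helz2 (1.15). Csad, for example, stood at 122 and 47.2 CPM over 30%, 241 and 31.9 CPM under 2%, and 223 and 36.3 CPM in the non-hepatocyte set. Nearest to Dbp were Ccne1 (0.557), Gtse1 (0.864), Kif20a (0.911), Cenpp (1.0) and Kif2c (1.15), of which Ccne1 encodes cyclin E1, which drives entry into DNA synthesis. Ccne1 stood at 0.865 and 14.3 CPM over 30%, 0.483 and 12.4 CPM under 2%, and 0.532 and 15.6 CPM in the non-hepatocyte set. The 6 points share 2 libraries, so a like pattern means a like difference between these libraries.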

How the data were processed

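Droplet scRNA-Seq counts of 1 undamaged and 1 PHx48h library were used. The deposited values are raw UMI counts for each gene in each barcode, which the authors made with Cell Ranger (version not given in the sources used here; build mm10 per the labels), and they were used unnormalized. Their doublet and mitochondrial filters have no stated thresholds. The 10 symbols matched 1 row each. Counts were summed per barcode set and divided by non-mitochondrial UMIs. Levels carry exact Poisson and ratios exact conditional 95% intervals, for counting error only. No p-value was formed with 1 library per group.

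Non-hepatocyte barcodes came from Leiden clusters (Scanpy 1.11.5, leidenalg 0.10.2) of barcodes under the 30% limit, without the 10 genes and mitochondrial genes, on 2000 variable genes at resolution 1.0. Clustered barcodes also needed 1000 UMIs, 500 genes and 10% of the depth at rank 30 in their library. That depth was 11578 UMIs at 0 h and 47030 at 48 h, so this limit was stricter at 48 h. It left 55328 and 702 barcodes for clustering. Barcodes that failed had no class and stayed in the sets drawn by mitochondrial share alone. Whether they held non-hepatocyte cells was not tested. A class needed at least 3 of its markers, and 3 markers had no entry. Hepatocyte was close to a default name, and 875 of the undamaged barcodes so named lay in a cluster led by Ecm1, Dcn and Bgn. Of the non-hepatocyte barcodes 325 and 14 also had under 2% mitochondrial UMIs. No doublet caller was run, so doublets may remain. TMM used edgeR 4.0.16. Ratios were tested on simulated data. Coordinates are GENCODE M21 (GRCm38).

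All 10 members were named, and other listed genes where at least 2-fold apart in the same direction in both mitochondrial sets. Rora, Nfil3, Cry1, Cirbp, Tat, Pck1, Tsc22d3 and Dusp1 were named after their values were seen. So were the overlapping genes Thra and Sphk2 and the genes Alb, Malat1 and Neat1. 1 listed gene was counted in its list but is not reported here. Members, lists and tests were chosen with earlier results of these data known.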

Additional observations from a re-analysis of the deposited data

Results flagged for a closer look

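Nr1d1 stood out because its difference between the libraries went opposite ways in the barcode sets. Its log2 ratio of 48 h over 0 h was −1.28 over 30% mitochondrial, −1.69 under 2% mitochondrial and 0.79 in the non-hepatocyte barcodes. Each set had 1 library per group, and the difference between the sets was not tested. With non-hepatocyte barcodes chosen by marker UMIs in place of clusters the last value was 0.10. With clusters at resolution 0.5, which gave 791 and 58 such barcodes, Nr1d1 was instead called higher there.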

How the results depend on the processing

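No paired analysis was possible because each group was 1 library. Of 363 alternative log2 ratios of single members 330 moved by less than their counting interval, 33 moved further and none of those called changed sign; of 120 alternative counts and shares 100 stayed alike. Over 30%, the count of lower members went from 2 to 1 with the mean of single-barcode CPM and with 5 CPM added, and to 0 when the whole interval had to pass 2-fold. Npas2, with its 48 h count put at the floor, joined the lower members with no minimum of UMIs and with the limit at over 20%. Under 2%, the count of lower members went to 1 with the limit at under 5%. Of the higher members under 2%, Per2 and Nr1d2 were no longer called with 5 CPM added or with the whole interval past 2-fold. Per1 and Ciart were not called there with a minimum of 50 UMIs. Nr1d2 was also not called without the 20 most abundant genes in the scaling and in the 1500 deepest barcodes. In the non-hepatocyte set, the count of higher members went from 4 to 2 with TMM, with a minimum of 50 UMIs, with the whole interval past 2-fold and, in an alternative added after seeing the data, without barcodes under 2% mitochondrial; the count of lower members went to 0 with a minimum of 50 UMIs. Over 30%, removing 3 barcodes at 0 h and 13 at 48 h by markers of other cells, or 49 and 13 in clusters with at least 2 such markers, both added after seeing the data, left the called members the same. Shares of barcodes with a clock gene UMI at 0 h and 48 h were 14.4% and 25.5% over 30%, 7.60% and 17.6% under 2%, and 9.74% (7.74 to 12.1) and 20% (13.1 to 28.5) in the non-hepatocyte set when thinned to 1000 UMIs, where 1399 barcodes at 0 h and 4 at 48 h over 30% were left out as shallower, and 19.0% and 71.4%, 11.2% and 58.0%, and 24.7% and 80.0% without thinning; fewer or more UMIs a barcode is the construction of these alternatives. Depth limited Npas2, Per2 and Ciart in the non-hepatocyte set, where 0 to 4 UMIs were counted per library.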
